A study of Mus musculus with 16 samples.

Results

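Glycolysis and the response to low oxygen were examined through 36 genes in mouse hepatic stellate cells, the pericytes of the liver sinusoid, which store retinoids and can turn into myofibroblasts. The list holds the glucose and lactate transporters, the enzymes from hexokinase to lactate dehydrogenase, their regulators, the oxygen sensors and known hypoxia targets. Each gene was represented by a probe set that carries its symbol and no other, and among several by the one brightest on average across all 16 arrays. A probe set of their own was found for 33 of the 36 genes, among 18194 such genes in all. Of these, 27 passed a filter of log2 5 on 2 or more arrays and were tested, among 7824 tested genes.

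Gpi1 and Eno1 were paired with no probe set alone in the annotation used here, and the 3 probe sets of Bnip3l were shared with another symbol. Aldoc, Pdk1, Pfkfb4, Ankrd37, Car9 and Car12 stayed below the filter and are described by their levels only. Slc16a3 passed the filter only through the coculture arrays and Egln3 only through the CCl4 arrays, so both had to be high there to be tested at all.

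The cells came from male Balb/c mice aged 8 to 10 weeks and had been depleted of cells bearing F4/80, a macrophage surface protein. Coculture (2 arrays) means 5 days on plastic in 10% serum with hepatic macrophages across a transwell membrane, and culture (3 arrays) means the same 5 days without macrophages. Bile duct ligation (3 arrays) means cells from mice whose common bile duct had been tied for 15 days, and CCl4 (3 arrays) means cells from mice given 4 intraperitoneal injections of carbon tetrachloride at 0.5 µl per g. Quiescent cells (5 arrays) came from normal mice. Bile duct ligation, CCl4 and quiescent cells had all spent 24 h on plastic before lysis, so none of the 3 groups is uncultured. Whether the arrays of a group stand for separate animals, pools or repeat preparations is not in the labels, so the p-values speak only for the spread among these arrays, part of which may be technical. One more coculture sample that the design text counts was not analysed here.

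Glycolysis splits glucose into pyruvate, which cells turn into lactate or pass to mitochondria. When oxygen is low, prolyl hydroxylases of the Egln family stop marking the HIF alpha subunits for destruction, and HIF then switches on glycolytic enzymes, lactate export, mitophagy and its own hydroxylases. Stellate cells that become myofibroblasts are known to raise glycolysis and lactate output.

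Between 6804 and 7038 genes reached log2 5 on an array, and the number of arrays limits the precision. Of 10 stellate cell markers, 9 or 10 averaged at least 5 in every group, and Acta2, the smooth muscle actin gene of myofibroblasts, already averaged 11.56 in quiescent cells. Against quiescent cells, 4 of the 10 were lower and 1 higher in coculture, 2 lower and 3 higher in culture, 2 lower and 1 higher after bile duct ligation and 5 lower and 1 higher after CCl4. Reln, a stellate cell glycoprotein gene, fell by 3.25 ± 0.36 in coculture (adjusted p = 9.93e-06, limma). Of 13 macrophage markers, Cd68 and Lyz2 reached 5 in coculture, bile duct ligation and CCl4 cells, none in culture and Cd68 alone in quiescent cells, while Adgre1, which encodes F4/80, averaged 1.55 in coculture and 1.88 in quiescent cells. The log2 of the summed hepatocyte markers was 4.72 to 5.17 in coculture, 4.51 to 5.00 in culture, 7.66 to 9.17 after bile duct ligation and 8.56 to 11.25 after CCl4, against 4.41 to 5.35 in quiescent cells. S100a8, a neutrophil and monocyte gene, stood at 8.70 and 11.06 in coculture and averaged 2.29 or less in the other groups. It was the 1 of 5 measured neutrophil markers to average at least 5 in coculture. The bile duct keratin gene Krt19 averaged 5.60 in coculture and 2.39 or less elsewhere (adjusted p = 2.38e-06 against quiescent cells, limma). It too was the 1 of 5 measured markers of its type to average at least 5 there. Krt8, a keratin gene of epithelial and mesothelial cells, averaged 6.70 after bile duct ligation and 7.78 after CCl4, against 1.89 in quiescent cells (adjusted p = 1.09e-05 and 1.09e-06). It was the 1 of 6 mesothelial and portal fibroblast markers to average at least 5 after either injury. S100a8 and Krt19 passed the filter only through coculture arrays and Krt8 only through injury arrays. Each had to be high there to be tested, and their low values lie near background. The part of these markers in the member differences was not tested. Among quiescent arrays, replicate 4 correlated least with its group (mean r 0.937, against 0.959 to 0.962).

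Coculture held the most of the highest group means among these genes. Among the 27 tested members, the highest of the 5 group means fell in coculture for 15, in culture for 5, after bile duct ligation for 2, after CCl4 for 3 and in quiescent cells for 2. The lowest mean was in coculture for 0 members, in culture for 8, after bile duct ligation for 4, after CCl4 for 3 and in quiescent cells for 12. Neither count was set against all tested genes, and a mean of 2 arrays varies more than a mean of 5. Slc16a3 and Egln3 are counted though the filter required them to be high in coculture and after CCl4. By limma's moderated F, 23 of 27 differed among the groups at an adjusted p under 0.05, where 63.0% of all tested genes did.

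In coculture against quiescent cells, limma called 16 members higher and 1 lower, where 17.9% of all tested genes were higher and 20.9% lower (38.8% in all). The median log2 difference was 0.90 over the members and -0.04 over all tested genes. In coculture against culture, 13 members were higher and 0 lower, where 8.38% of all genes were higher and 7.03% lower (15.4% in all), with medians of 0.67 and 0.01. Among the 27 tested, 15 members had an unadjusted p under 0.05 in this comparison, all 15 of them higher, where 29.1% of all tested genes passed (15.2% higher and 13.8% lower). Slc16a3, which had to be high in coculture to be tested, is among the 16, the 13 and the 15.

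Culture alone moved the members both ways. Against quiescent cells, 9 were higher and 5 lower, where 18.5% of all genes were higher and 23.5% lower (42.1% in all), and the medians were 0.26 over the members and -0.05 over all genes. After bile duct ligation, 5 were higher and 1 lower than in quiescent cells, where 8.03% and 8.83% of all genes were (16.9% in all), with medians of 0.13 and -0.05. After CCl4, 7 were higher and 1 lower, where 9.51% and 12.4% were (22.0% in all), with medians of 0.14 and -0.05. Egln3, which had to be high after CCl4 to be tested, is among the 7. In bulk RNA, fewer cells of a type and less RNA per cell cannot be told apart.

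Some of these counts hang on single arrays. In coculture against quiescent cells, 11 members were called without coculture replicate 3, a fit that gives the lone coculture array the spread of the other groups. Without culture replicate 2, 9 were called in culture. After CCl4, the count fell to 2 without CCl4 replicate 1, to 4 without CCl4 replicate 3 and to 5 without quiescent replicate 2 or 5. Egln3 missed the filter without CCl4 replicate 1 or 3, and Slc16a3 without coculture replicate 3. Part of the fall in those fits is therefore a member no longer tested. The 4 comparisons against quiescent cells use the same 5 quiescent arrays. Higher in all 4 of them were Bnip3 and Pgam1, and higher in 3 were Egln3, Ero1a, Hk2 and Tpi1. Another 9 members were higher in none. Over all tested genes, 2.19% were higher in all 4, 3.49% in 3 and 69.3% in none, and the shared quiescent arrays tie the 4 comparisons together.

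**Figure D1:**
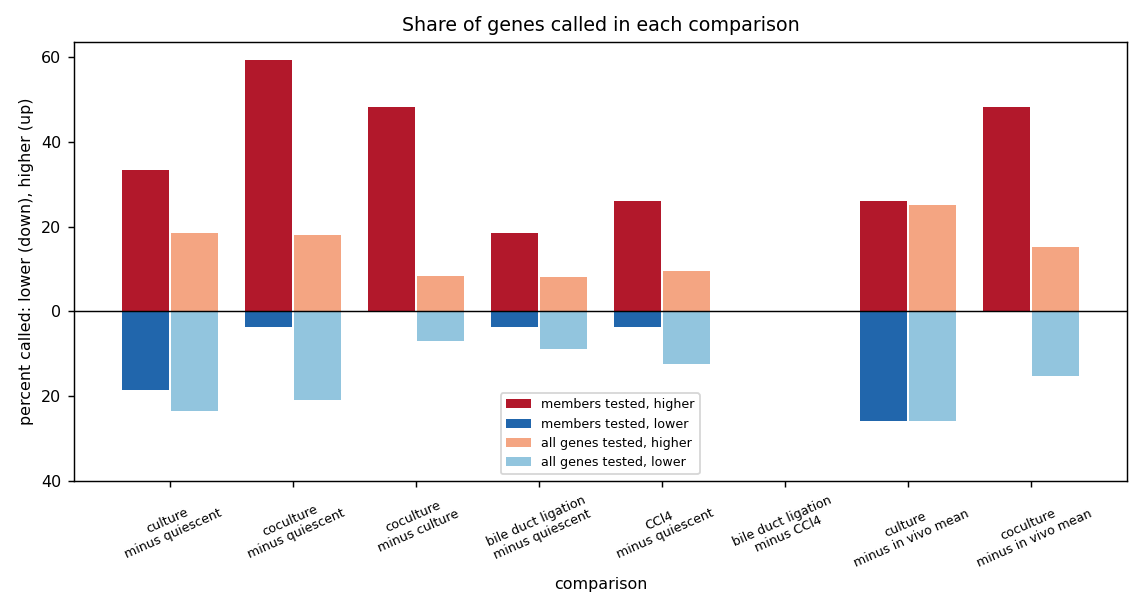
Bars give the percent of genes called higher (up) and lower (down) by limma in each comparison, dark for the 27 tested members and light for all 7824 tested genes. The in vivo mean is the mean of the bile duct ligation and CCl4 groups. In coculture against culture, 13 of 27 members were higher and 0 lower, against 8.38% and 7.03% of all genes. Slc16a3, which had to be high in coculture to be tested, is among the 13.

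HIF binds DNA at short core letters, and the promoters of the members that moved most are shown for that reason. Promoters from RefSeq (GRCm38.p6, 250 bases before to 50 after the annotated start) were found for 33 of the 36 genes, 50 promoters in all, and none for Epas1, Bnip3l and Ndrg1. Both strands were searched for ACGTG and for GCGTG. Slc16a3, Egln3, Bnip3, Hk2 and Ero1a are the 5 tested members with the largest log2 differences from quiescent cells, and Tpi1 was added as a called member with no match; the 6 were picked after their values were seen. The 250 bases before each start are printed on the gene's strand, with the letters of a match in capitals. A match on the opposite strand reads CACGT or CACGC. The regions are chr11:120948817-120949066 (plus strand) for Slc16a3, chr6:82774455-82774704 (minus) for Hk2, chr6:124814159-124814408 (minus) for Tpi1, chr12:54203875-54204124 (minus) for Egln3, chr7:138909507-138909756 (minus) for Bnip3 and chr14:45318573-45318822 (minus) for Ero1a.
Slc16a3: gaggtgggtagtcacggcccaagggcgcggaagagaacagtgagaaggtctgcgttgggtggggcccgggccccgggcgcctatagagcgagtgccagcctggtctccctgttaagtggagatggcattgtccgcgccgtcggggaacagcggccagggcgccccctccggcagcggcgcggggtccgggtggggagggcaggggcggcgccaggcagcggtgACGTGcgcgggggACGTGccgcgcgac
Hk2: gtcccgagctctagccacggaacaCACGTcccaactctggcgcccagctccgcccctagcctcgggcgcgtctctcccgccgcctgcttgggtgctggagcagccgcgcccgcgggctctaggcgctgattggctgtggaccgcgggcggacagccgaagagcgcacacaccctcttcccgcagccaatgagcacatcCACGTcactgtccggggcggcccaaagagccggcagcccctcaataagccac
Tpi1: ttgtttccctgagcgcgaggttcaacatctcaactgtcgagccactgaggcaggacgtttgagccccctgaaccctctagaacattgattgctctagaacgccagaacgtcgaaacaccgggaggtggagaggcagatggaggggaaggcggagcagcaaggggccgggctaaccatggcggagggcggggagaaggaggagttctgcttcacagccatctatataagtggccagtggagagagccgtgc
Egln3: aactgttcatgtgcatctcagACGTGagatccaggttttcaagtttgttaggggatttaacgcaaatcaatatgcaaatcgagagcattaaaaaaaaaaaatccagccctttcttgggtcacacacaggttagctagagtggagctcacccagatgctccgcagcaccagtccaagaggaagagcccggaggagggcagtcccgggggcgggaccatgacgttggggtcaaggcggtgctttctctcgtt
Bnip3: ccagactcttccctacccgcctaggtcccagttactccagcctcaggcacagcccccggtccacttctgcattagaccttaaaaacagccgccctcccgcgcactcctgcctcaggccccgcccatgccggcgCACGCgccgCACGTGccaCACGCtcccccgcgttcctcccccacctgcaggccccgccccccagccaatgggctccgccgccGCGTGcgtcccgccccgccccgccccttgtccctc
Ero1a: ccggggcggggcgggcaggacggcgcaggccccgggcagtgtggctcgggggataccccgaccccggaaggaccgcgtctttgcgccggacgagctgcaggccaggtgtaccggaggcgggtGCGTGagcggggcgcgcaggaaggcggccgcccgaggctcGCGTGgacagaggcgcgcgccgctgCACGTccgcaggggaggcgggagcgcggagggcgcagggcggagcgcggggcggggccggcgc

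Slc16a3 carries ACGTG at -27 to -23 and again at -14 to -10, counting the base before the start as -1. In Bnip3 the letters CACGTG at -108 to -103 read ACGTG on both strands and are counted on each, and GCGTG lies on either side, at -117 to -113, -99 to -95 and -35 to -31. Hk2 has ACGTG on the opposite strand at -226 to -222 and -52 to -48, Egln3 has it at -229 to -225, and Ero1a has it on the opposite strand at -63 to -59, after GCGTG at -128 to -124 and -88 to -84. Tpi1 holds neither within this window, which says only that these letters are absent here.

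Over all members, 39 of 50 promoters (78%) held at least 1 of the 2 cores, where 43.8% of all 32851 promoters of the same length did. ACGTG was in 56% of the member promoters and 19.6% of all, and GCGTG in 52% and 32.4%. The member promoters were also richer in G and C, with a median of 63.2% against 52.7%, and alternative starts of 1 gene are not independent. By gene, 30 of the 33 had a match and 24 had ACGTG. Many members are on the list because they are known HIF targets, so these shares describe the list and are not a test.

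**Figure D2:**
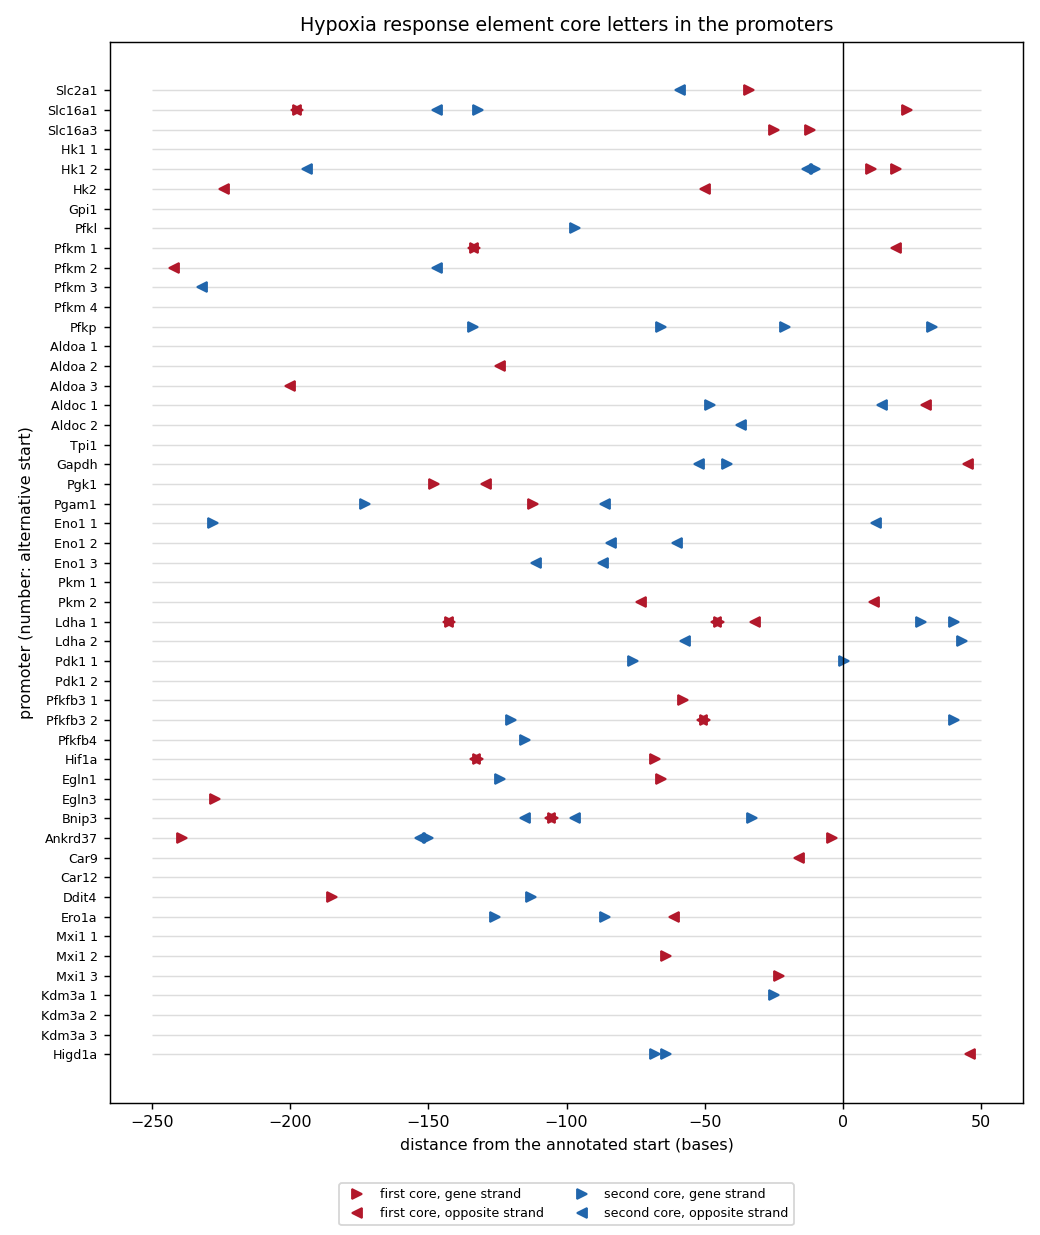
Each line is 1 of the 50 member promoters, from 250 bases before to 50 after the start at 0, and each triangle is a match of ACGTG (red, first core) or GCGTG (blue, second core), pointing right for the gene's strand. Red stars are letters that read ACGTG on both strands, as in Bnip3. Tpi1, Gpi1 and Car12 have no match in any promoter, and some alternative starts of other genes are empty too.

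Among the transporters, the lactate exporter Slc16a3 (MCT4) stood apart in coculture. Its log2 values were 5.38 and 5.77 in coculture, 3.52, 2.82 and 1.91 in culture, 2.31, 3.03 and 2.38 after bile duct ligation and 2.36, 2.13 and 2.31 after CCl4, against 1.86, 1.74, 1.44, 1.82 and 1.33 in quiescent cells. Both coculture arrays lay above every other array, and all others lay below 5, near background, where a fold depends on the background estimate. Slc16a3 rose by 3.94 ± 0.40 in coculture over quiescent cells (log2 difference ± SE; adjusted p = 4.99e-06, limma) and by 2.83 ± 0.44 over culture (adjusted p = 0.000597). It could not be tested without either coculture array, since it then missed the filter. In culture it rose by 1.11 ± 0.35 over quiescent cells (adjusted p = 0.0197), a call lost without culture replicate 1 (0.72) or 2 (1.08), and after bile duct ligation the difference was 0.93 ± 0.35 (adjusted p = 0.0849). That last difference was called without culture replicate 3 (0.93).

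Slc16a1 (MCT1), which carries lactate both ways, averaged 7.44 ± 0.51 in culture (SD, n = 3) and 8.26 ± 0.40 in quiescent cells (n = 5). It fell by 0.82 ± 0.25 in culture (adjusted p = 0.0169, limma), with overlapping arrays, and without culture replicate 3 the difference was -0.56 and not called. In coculture it averaged 8.22 ± 0.47 and the difference from quiescent cells was -0.05 ± 0.29. Slc2a1, the GLUT1 glucose importer, was 10.89 and 10.85 in coculture, 10.82, 10.74 and 11.21 in culture and 11.38, 10.88 and 10.95 after CCl4, against 9.60, 10.45, 10.08, 11.33 and 9.53 in quiescent cells. It was called in none of the 3 (adjusted p = 0.143, 0.0692 and 0.0544, limma), and its 5 quiescent values spread widely because replicate 4 stood as high as the activated cells. Without quiescent replicate 4 it was called in all 3, by 0.96 in coculture, 1.01 in culture and 1.15 after CCl4.

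The 2 hexokinases, which trap glucose by phosphorylation, went separate ways. Hk2, the inducible form, read 8.05 and 7.81 in coculture, 6.43, 5.25 and 4.08 in culture, 7.66, 8.32 and 8.18 after bile duct ligation and 8.24, 7.47 and 7.90 after CCl4, against 3.97, 5.60, 3.64, 5.73 and 4.16 in quiescent cells. Coculture and both injuries lay above every quiescent and culture array, while culture and quiescent arrays overlapped. Hk2 rose by 3.31 ± 0.59 in coculture (9.90-fold, adjusted p = 0.000533, limma), by 3.43 ± 0.51 after bile duct ligation (10.8-fold, adjusted p = 0.000275) and by 3.25 ± 0.51 after CCl4 (9.49-fold, adjusted p = 0.000423), all against quiescent cells. The culture difference was 0.63 ± 0.51 (adjusted p = 0.338), and 1.50 and called when culture replicate 3 and quiescent replicate 4 were both left out. Coculture exceeded culture by 2.68 ± 0.64 (adjusted p = 0.0107), a call lost without coculture replicate 2 (2.56).

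Hk1, the constitutive hexokinase, averaged 8.23 ± 0.13 in coculture, 7.89 ± 0.26 in culture, 8.79 ± 0.19 after bile duct ligation and 8.33 ± 0.24 after CCl4, against 8.61 ± 0.26 in quiescent cells. It fell by 0.72 ± 0.17 in culture (adjusted p = 0.00369, limma) and was called in no other comparison against quiescent cells. Its difference in coculture was -0.38 ± 0.20.

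Phosphofructokinase, which commits sugar to glycolysis, is built from 3 subunit genes, of which 2 were called in coculture. The platelet-type subunit Pfkp averaged 8.04 ± 0.26 in coculture and 8.36 ± 0.12 in culture, against 7.44 ± 0.24 in quiescent cells. It rose by 0.92 ± 0.17 in culture (adjusted p = 0.000488, limma) and by 0.60 ± 0.19 in coculture (adjusted p = 0.0217), the second lost without coculture replicate 3 (0.41). The liver-type Pfkl was 7.82 and 7.93 in coculture, above all 5 quiescent arrays (6.11 to 7.04), and rose by 1.25 ± 0.28 (adjusted p = 0.00308). In culture its difference was 0.58 ± 0.25 and not called, but 0.88 and called without culture replicate 3 and 0.68 and called without quiescent replicate 5. The muscle-type Pfkm passed the threshold in none of the 8 comparisons.

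Tpi1, which interconverts the 2 triose phosphates, rose in 3 of the 4 activated states. Its values were 11.01 and 11.25 in coculture, 10.00, 10.03 and 9.76 in culture, 10.26, 10.26 and 10.09 after bile duct ligation and 10.13, 9.88 and 10.22 after CCl4, against 9.84, 9.67, 9.65, 9.46 and 9.72 in quiescent cells. Both injuries and coculture lay above every quiescent array. Tpi1 rose by 1.47 ± 0.13 in coculture over quiescent cells (2.76-fold, adjusted p = 1.72e-06, limma), by 1.20 ± 0.14 over culture (adjusted p = 7.95e-05), by 0.54 ± 0.11 after bile duct ligation (adjusted p = 0.00409) and by 0.41 ± 0.11 after CCl4 (adjusted p = 0.0175). The CCl4 call was lost without CCl4 replicate 1 (0.39) or 3 (0.34), and a culture difference of 0.26 ± 0.11 became called without culture replicate 3 (0.35), with array weights (0.31) and with each array centred on its median (0.30).

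Aldoa, the aldolase of most tissues, was the 1 member lower in coculture, at 10.93 and 11.06, against 11.21 to 11.58 in quiescent cells. Its difference was -0.37 ± 0.13 (adjusted p = 0.0351, limma), lost without either coculture array (-0.30 and -0.43) and without quiescent replicate 4 (-0.35) or 5 (-0.32). In culture it fell by 0.38 ± 0.11 (adjusted p = 0.0136), lost without culture replicate 3 (-0.26). Of its 5 probe sets, 4 had lower means in coculture than in quiescent cells and the dimmest, at 7.85 in coculture and 7.31 in quiescent cells, ran the other way. The probe sets used for Aldoa, Tpi1 and Ndrg1 end in _x_at, which marks probes shared in part with similar transcripts. Aldoc, the brain aldolase, stayed below the filter, at 1.91 and 3.64 in coculture and 0.91 to 2.04 elsewhere.

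**Figure D3:**
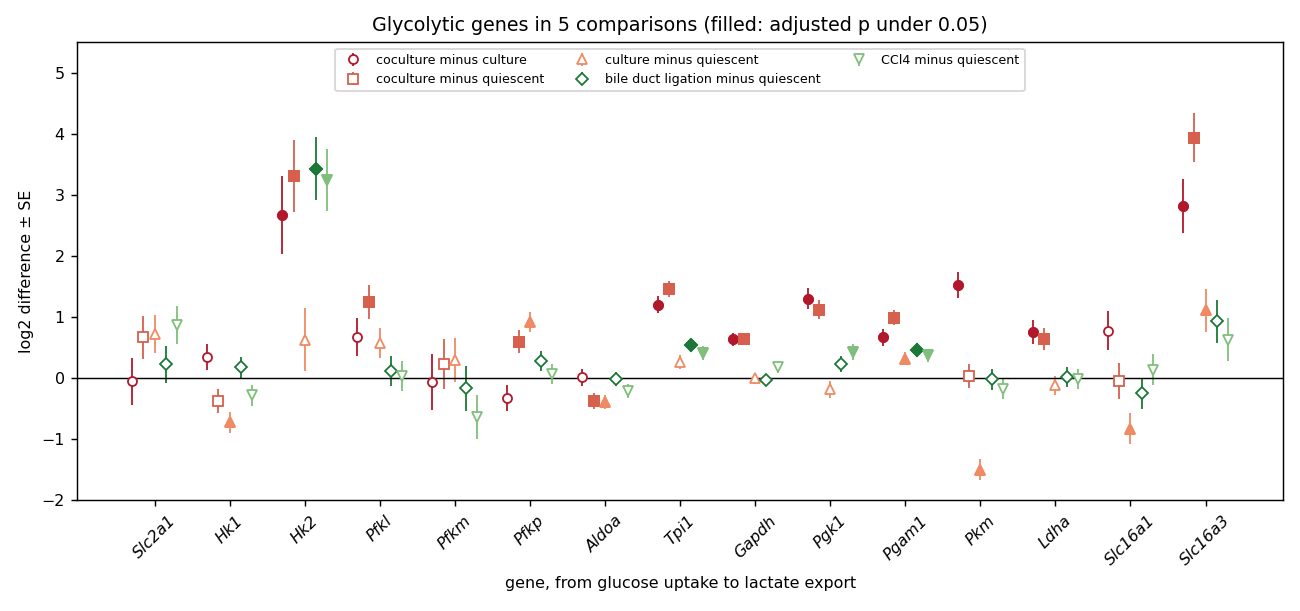
Log2 differences ± SE of 15 transporters and enzymes, in the order of the pathway, for 5 comparisons given by symbol and colour. Filled symbols are calls. The enzymes from Tpi1 to Ldha are all filled for coculture minus culture, and Pkm lies far below 0 in culture minus quiescent alone.

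The tested genes of the lower part of the pathway stood higher in coculture than in culture. All 5 from Gapdh to Ldha were called higher than in culture, where 8.38% of all tested genes were. Of them, 4 were higher than in quiescent cells, Pkm being the exception, where 17.9% of all genes were. With only the compared groups fitted, the calls over culture of Pgam1 (0.67, limma adjusted p = 0.0774) and Ldha (0.76, adjusted p = 0.152) were lost. Eno1, also of this part, had no probe set of its own. Pgk1, phosphoglycerate kinase, read 11.47 and 11.79 in coculture, 10.47, 10.44 and 10.07 in culture, 10.87, 10.79 and 10.57 after bile duct ligation and 11.09, 10.77 and 10.96 after CCl4, against 10.42, 10.34, 10.49, 10.85 and 10.45 in quiescent cells. The coculture arrays lay above all others. Pgk1 rose by 1.12 ± 0.16 over quiescent cells (2.17-fold, adjusted p = 7.69e-05, limma) and by 1.30 ± 0.17 over culture (adjusted p = 0.000159). After CCl4 it rose by 0.43 ± 0.14 (adjusted p = 0.0342), a call lost without CCl4 replicate 1 (0.35) or 3 (0.42) and without quiescent replicate 1 (0.41), 2 (0.39), 3 (0.42) or 5 (0.41).

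Pgam1, phosphoglycerate mutase, was higher than in quiescent cells in all 4 other groups. It averaged 11.39 ± 0.09 in coculture, 10.71 ± 0.27 in culture, 10.86 ± 0.01 after bile duct ligation and 10.77 ± 0.10 after CCl4, against 10.39 ± 0.13 in quiescent cells. The differences were 0.99 ± 0.13 in coculture (adjusted p = 4e-05, limma), 0.32 ± 0.11 in culture (adjusted p = 0.0303), 0.46 ± 0.11 after bile duct ligation (adjusted p = 0.00941) and 0.37 ± 0.11 after CCl4 (adjusted p = 0.0264). The culture call was lost without culture replicate 1 (0.22) or 2 (0.27) or quiescent replicate 2 (0.28), 3 (0.31) or 5 (0.31), and the CCl4 call without CCl4 replicate 1 (0.33) or 3 (0.36) or quiescent replicate 2 (0.34) or 5 (0.36).

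Gapdh, the dehydrogenase often used as a loading control, was measured only by control probe sets of the array, and the set against its 5′ end was used. It averaged 12.97 ± 0.06 in coculture and 12.33 ± 0.19 in culture, against 12.33 ± 0.10 in quiescent cells. It rose by 0.64 ± 0.10 in coculture over quiescent cells (adjusted p = 0.000189, limma) and by 0.64 ± 0.11 over culture (adjusted p = 0.00114). The 3′ minus 5′ difference of Gapdh, a sign of RNA integrity and labelling, was -0.30 to -0.25 in coculture, -0.46 to -0.34 in culture, -0.05 to 0.12 after bile duct ligation and -0.31 to -0.12 after CCl4, against -0.30 to 0.10 in quiescent cells, and its part in these results was not tested.

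Pkm, the pyruvate kinase gene that yields both the PKM1 and PKM2 isoforms, fell in culture alone. Its values were 10.97 and 11.02 in coculture, 9.79, 9.70 and 8.91 in culture, 10.89, 10.92 and 11.04 after bile duct ligation and 10.61, 10.84 and 10.92 after CCl4, against 11.06, 10.97, 10.59, 11.15 and 11.05 in quiescent cells. The 3 culture arrays lay below all other arrays, and the other 4 groups overlapped. Pkm fell by 1.50 ± 0.17 in culture (0.354-fold, adjusted p = 1.11e-05, limma), and coculture exceeded culture by 1.53 ± 0.21 (adjusted p = 0.000273). Both calls held under each of the 26 alternatives. Its 1 probe set does not tell the isoforms apart here.

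Ldha, which makes lactate, was 11.41 and 11.59 in coculture and 11.13, 10.89 and 10.20 in culture, against 10.84, 10.81, 10.62, 10.95 and 11.05 in quiescent cells. It rose by 0.65 ± 0.18 over quiescent cells (adjusted p = 0.0114, limma), lost without coculture replicate 3 (0.56), and by 0.76 ± 0.20 over culture (adjusted p = 0.0175), lost without coculture replicate 2 (0.85) or 3 (0.67). After bile duct ligation and CCl4 its differences were 0.02 ± 0.16 and -0.01 ± 0.16.

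Of the regulators of flux, Pfkfb3, whose product makes the allosteric activator of phosphofructokinase, was higher in culture. It read 7.23 and 6.78 in coculture, 7.66, 6.90 and 7.04 in culture, 5.18, 4.77 and 6.89 after bile duct ligation and 6.04, 6.31 and 6.23 after CCl4, against 5.87, 6.48, 5.60, 6.07 and 5.62 in quiescent cells. All 5 culture and coculture arrays lay above the quiescent ones, and bile duct ligation replicate 3 stood apart from the other 2 of its group. Pfkfb3 rose by 1.28 ± 0.37 in culture (adjusted p = 0.012, limma), lost without culture replicate 1 (1.05). In coculture the difference was 1.08 ± 0.42 (adjusted p = 0.0545), called without quiescent replicate 2 (1.22) or bile duct ligation replicate 2 (1.08) or 3 (1.08). After bile duct ligation it was -0.32 ± 0.37, and -0.96 and called without bile duct ligation replicate 3.

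Pdk1, which shuts pyruvate out of mitochondria by inhibiting pyruvate dehydrogenase, passed log2 5 on 1 array only and was not tested. It read 3.78 and 5.95 in coculture and 2.89, 3.76 and 3.83 in culture, against 1.09, 1.05, 1.63, 1.23 and 1.21 in quiescent cells. All 5 culture and coculture arrays were above every array of the injuries (1.47 to 1.99) and of quiescent cells. Pfkfb4 lay between 2.36 and 3.80 on all 16 arrays.

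Among the oxygen sensing genes, Hif1a, the oxygen-regulated alpha subunit itself, rose in coculture. It read 11.69 and 11.60 in coculture, 10.82, 10.99 and 10.98 in culture, 10.29, 10.85 and 10.70 after bile duct ligation and 10.57, 10.94 and 11.06 after CCl4, against 10.58, 10.82, 10.76, 10.53 and 10.81 in quiescent cells. The 2 coculture arrays were above all others. Hif1a rose by 0.94 ± 0.15 over quiescent cells (1.92-fold, adjusted p = 0.000263, limma) and by 0.71 ± 0.17 over culture (adjusted p = 0.00927), the second lost without coculture replicate 2 (0.67). RNA levels do not report HIF protein, which is controlled mainly by degradation.

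Epas1, the HIF-2 alpha gene, averaged 10.73 ± 0.45 after CCl4 and 11.23 ± 0.12 in quiescent cells. Its difference of -0.50 ± 0.17 (adjusted p = 0.0475, limma) was -0.25 and not called without CCl4 replicate 1, and most of the alternatives lost it. Its 2 probe sets disagreed in coculture, where the dimmer one averaged 7.81, against 6.27 in quiescent cells, and the brighter one 11.13, against 11.23.

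Egln3, a prolyl hydroxylase that is itself a HIF target, was highest after CCl4. It read 3.08 and 4.72 in coculture, 1.17, 1.17 and 1.87 in culture, 3.81, 3.46 and 2.36 after bile duct ligation and 5.44, 4.80 and 6.08 after CCl4, against 1.52, 1.46, 1.65, 1.53 and 1.22 in quiescent cells. Coculture and both injuries lay above every quiescent array, and culture overlapped with quiescent cells. Egln3 rose by 3.96 ± 0.43 after CCl4 (adjusted p = 1.61e-05, limma), by 1.73 ± 0.43 after bile duct ligation (adjusted p = 0.0109) and by 2.42 ± 0.49 in coculture (adjusted p = 0.00138). The bile duct ligation call was lost without replicate 1 (1.43) or 2 (1.61) of that group and the coculture call without coculture replicate 3 (1.60). Egln3 could not be tested without CCl4 replicate 1 or 3, the 2 arrays above log2 5, since it then missed the filter. Since the quiescent arrays sit at background, these folds depend on the background estimate.

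Egln1, the main HIF prolyl hydroxylase, was called in none of the 8 comparisons; in culture its difference was -0.62 ± 0.27 (adjusted p = 0.07, limma), and -0.83 and called without culture replicate 1.

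**Figure D4:**
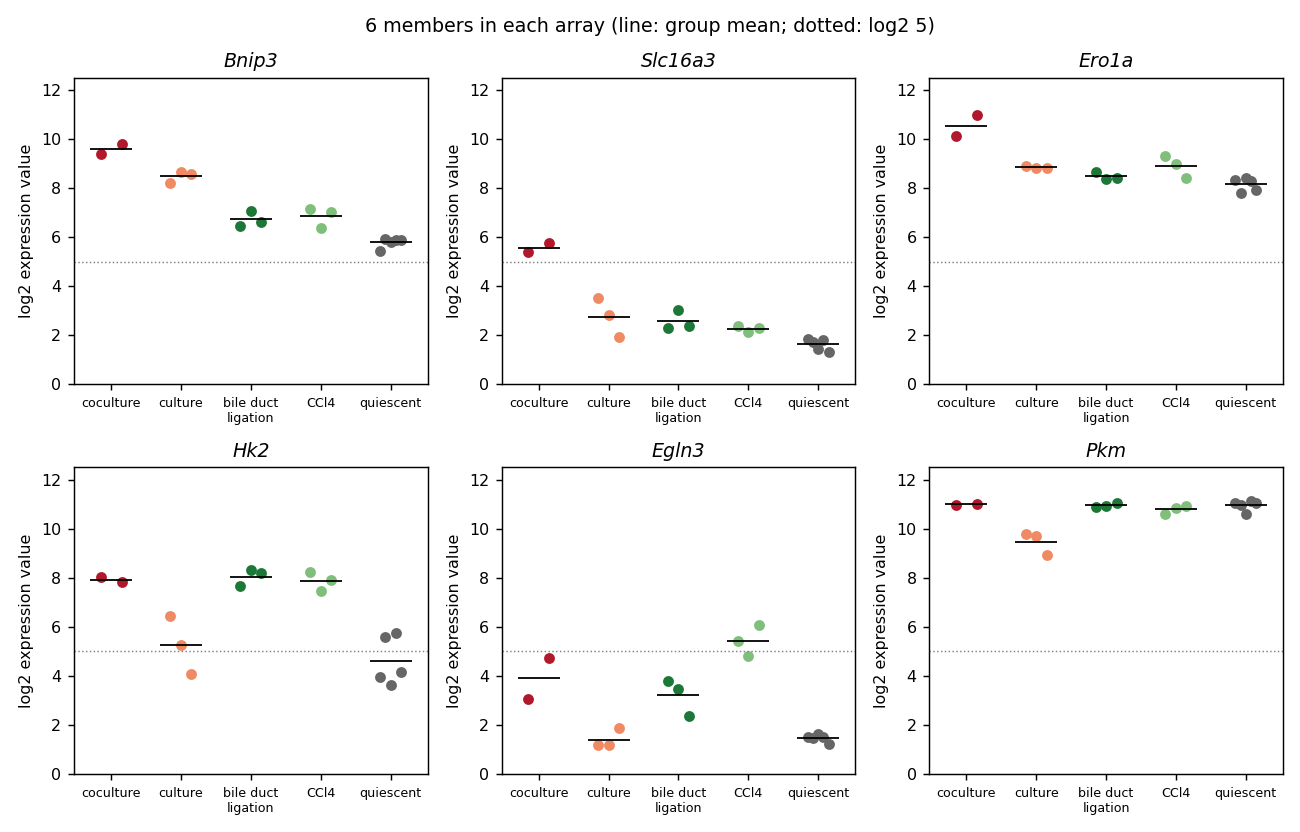
Log2 values of 6 members on every array, by group, with the group mean as a line and log2 5 dotted. Bnip3 and Ero1a are highest in coculture, Slc16a3 passes 5 there alone, Hk2 is high in coculture and both injuries, Egln3 peaks after CCl4 and Pkm is low in culture alone.

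Bnip3, a mitophagy receptor and one of the classic HIF targets, showed the clearest pattern. It read 9.38 and 9.81 in coculture, 8.20, 8.68 and 8.58 in culture, 6.47, 7.07 and 6.63 after bile duct ligation and 7.15, 6.37 and 7.01 after CCl4, against 5.43, 5.94, 5.78, 5.90 and 5.88 in quiescent cells. Coculture was above culture, culture above both injuries and the injuries above quiescent cells with no overlap, while the 2 injuries overlapped. Bnip3 rose by 3.81 ± 0.24 in coculture (14.0-fold, adjusted p = 4.93e-08, limma), by 2.70 ± 0.21 in culture (6.49-fold, adjusted p = 2.73e-07), by 0.94 ± 0.21 after bile duct ligation (1.91-fold, adjusted p = 0.00568) and by 1.05 ± 0.21 after CCl4 (2.08-fold, adjusted p = 0.0022). Coculture exceeded culture by 1.11 ± 0.26 (adjusted p = 0.00941), a call lost without coculture replicate 3 (0.89). Its promoter is the one above with CACGTG and 3 copies of GCGTG.

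Ero1a, the oxidase that recharges disulfide formation in the endoplasmic reticulum, read 10.11 and 10.97 in coculture, 8.89, 8.82 and 8.82 in culture, 8.65, 8.35 and 8.43 after bile duct ligation and 9.31, 9.0 and 8.42 after CCl4, against 8.32, 7.82, 8.43, 8.31 and 7.92 in quiescent cells. Both coculture arrays were above all others. Ero1a rose by 2.38 ± 0.25 in coculture over quiescent cells (5.22-fold, adjusted p = 5.47e-06, limma) and by 1.70 ± 0.27 over culture (adjusted p = 0.000669). It also rose in culture, by 0.68 ± 0.22 (adjusted p = 0.019), lost without culture replicate 1 (0.66) or 2 (0.69), and after CCl4, by 0.75 ± 0.22 (adjusted p = 0.0214), lost without CCl4 replicate 1 (0.55) or 2 (0.71). Its 2 dimmer probe sets averaged 8.31 and 7.96 in coculture, 8.13 and 7.36 in culture and 7.10 and 5.58 in quiescent cells. Both put coculture less far above culture than the set used. The difference between coculture and culture ran from 0.83 to 2.13 over the alternatives and stayed called.

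Ddit4 (REDD1), an inhibitor of mTORC1, moved in opposite directions in the 2 culture conditions. It read 8.63 and 9.06 in coculture and 5.90, 6.19 and 6.13 in culture, against 6.44, 6.64, 7.53, 7.88 and 6.89 in quiescent cells. Coculture lay above and culture below every quiescent array. Ddit4 rose by 1.77 ± 0.39 in coculture (adjusted p = 0.00251, limma), and coculture exceeded culture by 2.77 ± 0.42 (6.83-fold, adjusted p = 0.000513). The fall of 1.00 ± 0.34 in culture (adjusted p = 0.0276) was lost without any 1 culture array (-0.91, -1.06 and -1.03) and without quiescent replicate 3 (-0.89) or 4 (-0.80). After CCl4 its difference was -0.84 ± 0.34 (adjusted p = 0.0889), called without bile duct ligation replicate 3 (-0.84).

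Ndrg1, a stress-responsive gene used as a hypoxia marker, averaged 8.68 ± 0.51 in coculture and 8.54 ± 0.71 in culture, against 6.90 ± 0.43 in quiescent cells. It rose by 1.78 ± 0.42 in coculture (adjusted p = 0.00375, limma), lost without coculture replicate 3 (1.42), and by 1.65 ± 0.36 in culture (adjusted p = 0.00221). Unlike Bnip3, it was no higher in coculture than in culture beyond the spread (0.14 ± 0.46). All 5 of its probe sets had higher means in both conditions than in quiescent cells.

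Higd1a, a mitochondrial protein gene, averaged 10.63 ± 0.10 in coculture and 10.43 ± 0.04 in culture, against 10.01 ± 0.15 in quiescent cells. It rose by 0.62 ± 0.12 in coculture (adjusted p = 0.00126, limma) and by 0.42 ± 0.11 in culture (adjusted p = 0.00553). With its 3 probe sets averaged, the coculture difference was 0.08 (adjusted p = 0.828), and both dimmer sets had lower means in coculture than in quiescent cells. The culture difference was then 0.60 with an adjusted p of 0.0503, and both dimmer sets had higher means in culture. Mxi1, a MAX partner that opposes MYC, was called in culture by 0.87 ± 0.34 (adjusted p = 0.0488), a value at the threshold that most of the alternatives lost; it was 0.48 without culture replicate 3 and 0.71 without quiescent replicate 4.

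Kdm3a, a histone demethylase induced by HIF, fell after bile duct ligation, where it read 6.92, 7.49 and 6.54, against 7.61, 8.07, 7.61, 7.62 and 7.86 in quiescent cells. The difference was -0.77 ± 0.18 (adjusted p = 0.00772, limma), lost without bile duct ligation replicate 3 (-0.55). Ankrd37, another HIF target, stayed below the filter but stood at 3.54 and 4.21 in coculture and at 1.54 to 2.58 elsewhere. Car9, a carbonic anhydrase that serves as a hypoxia marker in tumours, lay between 1.09 and 1.62 on all 16 arrays, and Car12 between 1.39 and 2.02.

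The 2 injuries were set against each other directly. None of the 27 members was called between bile duct ligation and CCl4 by limma, where 0.166% of all tested genes were (0.0256% higher and 0.141% lower). At an unadjusted p under 0.05 there were 4 of 27, 3 of them higher after bile duct ligation, where 14.0% of all tested genes passed (7.57% higher), so the members passed about as often as other genes. Egln3 came closest, at 3.81, 3.46 and 2.36 after bile duct ligation and 5.44, 4.80 and 6.08 after CCl4, a difference of -2.23 ± 0.48 (adjusted p = 0.0769). It was called when no filter was set (adjusted p = 0.0306) and with array weights (-1.99, adjusted p = 0.0293). Egln3 passed the filter only through CCl4 arrays, so it had to be high there to be tested. All its bile duct ligation arrays lay below log2 5, near background. The hepatocyte gene Alb averaged 8.25 after bile duct ligation and 9.33 after CCl4, with overlapping arrays (-1.08 ± 0.69, adjusted p = 0.506), and the part of hepatocyte transcripts in the Egln3 difference was not tested. For Hk2 the difference was 0.19 ± 0.57 and for Bnip3 -0.12 ± 0.23.

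Set against the mean of the 2 injuries, culture and coculture gave different pictures. Time on plastic differs too in these comparisons, 5 days against 24 h, and cannot be told apart from the rest of the setting. In coculture 13 members were higher and 0 lower, where 15.1% and 15.3% of all genes were (30.4% in all), and 6 were called without coculture replicate 3. In culture 7 were higher and 7 lower, where 25.0% and 25.9% were (50.9% in all), so the members were called about as often as other genes. Hk2 was lower in culture by 2.71 ± 0.49 (adjusted p = 0.000376, limma) and Egln3 by 2.92 ± 0.41 (adjusted p = 4.42e-05), while in coculture the differences were -0.03 ± 0.57 and -0.42 ± 0.48. Slc16a3 (3.16 ± 0.39), Bnip3 (2.81 ± 0.23), Ddit4 (2.33 ± 0.38) and Ero1a (1.85 ± 0.24) exceeded the injuries most in coculture. In culture Bnip3 exceeded them by 1.70 ± 0.20 (adjusted p = 9.17e-06) and Pfkfb3 by 1.30 ± 0.36 (adjusted p = 0.00709), and Pkm was lower by 1.40 ± 0.17 (adjusted p = 9.35e-06). Slc16a3 was tested only because its coculture arrays passed the filter, so its place in this order was partly set by that. Without coculture replicate 3 it was not tested. Egln3 passed only through CCl4 arrays, and the same limit holds for its differences here.

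Genes of neighbouring pathways were read against the share of all tested genes called, which was 38.8% in coculture, 42.1% in culture, 16.9% after bile duct ligation and 22.0% after CCl4. Of 20 tested hypoxia targets outside the list, 11 were higher and 1 lower in coculture than in quiescent cells, 8 higher and 2 lower in culture, 5 and 3 after bile duct ligation and 8 and 3 after CCl4. That is 60%, 50%, 40% and 55% of the 20, the culture share being close to that of all genes. Lox, which cross-links collagen, rose by 6.36 ± 0.35 in coculture, 5.66 ± 0.30 in culture, 5.59 ± 0.30 after bile duct ligation and 4.65 ± 0.30 after CCl4 (each limma adjusted p 6.64e-08 or lower). Its quiescent arrays read 3.53 to 5.05, mostly below log2 5, so the size of these differences depends on the background estimate. Angptl4, a lipoprotein lipase inhibitor, rose by 4.56 ± 0.44 in coculture (adjusted p = 2.72e-06) and by 3.69 ± 0.38 after CCl4 (adjusted p = 1.06e-05), while its culture difference was -0.07 ± 0.38; its quiescent arrays read 4.21 to 5.27, and the same limit holds. Coculture exceeded culture in 5 of the 20, with Angptl4 (4.62 ± 0.48), the adenylate kinase Ak4 (2.28 ± 0.64) and the placental growth factor gene Pgf (2.15 ± 0.60) in front, and 0 were lower (25% called, where 15.4% of all genes were). Pgf averaged below log2 5 in every group, so the size of its difference also depends on the background estimate.

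The pentose phosphate pathway, which branches from glucose-6-phosphate to make NADPH and ribose, had mostly lower genes after 5 days on plastic. Of 7 tested genes, 5 were lower and 1 higher in both coculture and culture (85.7% called in each). Taldo1, transaldolase, fell by 1.36 ± 0.17 in coculture (limma adjusted p = 2.78e-05) and by 2.37 ± 0.15 in culture (adjusted p = 3.87e-08), and Rpia, ribose-phosphate isomerase, by 1.27 ± 0.17 and by 1.40 ± 0.15. Rpe, ribulose-phosphate epimerase, rose by 1.63 ± 0.23 in coculture. After bile duct ligation 0 of the 7 were called, and after CCl4 Rpe was higher (0.82 ± 0.20) and Pgls lower (-0.54 ± 0.18).

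Of 7 tested glycogen genes, 4 were higher and 1 lower in coculture (71.4% called), 4 higher and 2 lower in culture (85.7%) and 0 called after either injury. Genes of all kinds were called more often after 5 days on plastic than after injury, and the difference between the settings was not tested for this list. The phosphorylase Pygl, which frees glucose from glycogen, rose by 1.64 ± 0.28 in coculture and by 1.36 ± 0.25 in culture, while the branching enzyme Gbe1 fell by 1.32 ± 0.29 and by 1.64 ± 0.26 (limma adjusted p 0.00266 or lower). At the gate to mitochondria, 3 of 9 genes were higher and 1 lower in coculture (44.4% called) and 3 higher and 0 lower in culture (33.3%), shares near or below those of all genes. Pdk4, a relative of Pdk1, rose by 1.81 ± 0.53 in coculture (adjusted p = 0.014) and by 2.50 ± 0.46 in culture (adjusted p = 0.000583). Pdp1, the phosphatase that reactivates pyruvate dehydrogenase, fell by 1.45 ± 0.32 in coculture, by 1.75 ± 0.28 after bile duct ligation and by 1.55 ± 0.28 after CCl4.

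Among 8 HIF partners and oxygen sensors outside the list, 0 were higher in any comparison against quiescent cells. In coculture 4 were lower, led by the hydroxylase Egln2 (-0.93 ± 0.24, limma adjusted p = 0.00799) and the coactivator Ep300 (-0.92 ± 0.17, adjusted p = 0.000781), in culture 2, after CCl4 1 and after bile duct ligation 0. The coculture and culture counts are 50% and 25% of the 8. Cell cycle genes rose beside the members: of 11 tested, 10 were higher and 0 lower in coculture, 7 higher and 3 lower in culture, 10 higher after bile duct ligation and 9 after CCl4, and all 11 were higher in coculture than in culture. Cdk1, which drives mitosis, rose by 5.61 ± 0.36 in coculture and by 3.48 ± 0.32 in culture. The part of proliferation, of the S100a8 signal and of macrophage transcripts in the coculture differences was not tested. The log2 of the summed macrophage markers was 8.25 to 8.27 in coculture and 6.31 to 6.50 in culture, against 6.74 to 8.04 in quiescent cells.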

How the data were processed

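RNA from stellate cells was hybridised to 16 Affymetrix arrays, 1 for each sample. The authors deposited a log2 value for each probe set, and GCRMA, which corrects background by probe sequence, normalises by quantiles and summarises probes, is named in the submitters' processing notes; which version and options were used is not given in the sources used here. The table held 45101 probe sets, of which 34958 carried 1 gene symbol and 932 several in the platform annotation, and those with several were left out. Control probe sets were used only for Gapdh, which had no other probe set of its own. The filter kept genes that reached log2 5 on 2 or more arrays.

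With limma 3.58.1 under R 4.3.3, lmFit and eBayes (trend on) estimated the 5 group means together, which lets small groups borrow the spread of the rest, and 8 contrasts were tested two-sided. Adjusted p-values are Benjamini-Hochberg over all 7824 tested genes, and called means under 0.05. The script was tested on simulated data. Differences are log2, and errors are SE for differences and SD for group means. Genes outside the list are named only where called, at most the 3 with the largest change per list and comparison, apart from markers and genes named to set values beside a call. The members and lists were chosen with earlier results of these data known. Leaving out each array, filters, array centring, array weights, other probe set rules and other fits were tried; leaving out culture replicate 3 and quiescent replicate 4 together was added after seeing the data.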

Additional observations from a re-analysis of the deposited data

Results flagged for a closer look

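Pgk1 in quiescent replicate 4 stood at 10.85, far from the other 4 quiescent arrays at 10.34 to 10.49. Its gap to the nearest of them made up 0.724 of the whole range, above Dixon's critical value of 0.71 for 5 samples. It was the 1 array so marked among the 33 measured members in the quiescent group, where chance marks about 1 in 20 groups. The same array was also the highest of its group for Slc2a1 and Hk2. Pgk1 in coculture kept its call without this array.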

How the results depend on the processing

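Of 216 member differences (27 members in 8 comparisons), 85 were called, 47 of them under every one of the 26 alternatives in which they could be tested, and 38 were lost under at least 1. Another 23 became called with the same sign under at least 1, and 3 with the opposite sign. Leaving out each array in turn gave 9 to 14 called members in culture against quiescent cells (14 with all arrays), 11 to 18 in coculture against quiescent cells (17), 9 to 13 in coculture against culture (13), 5 to 7 after bile duct ligation (6), 2 to 9 after CCl4 (8), 0 to 0 between the injuries (0), 11 to 14 in culture against the injuries (14), 6 to 14 in coculture against them (13) and 19 to 24 over all groups (23). Slc16a3 or Egln3 missed the filter in some of these fits, so part of a lower count can be a member not tested. Without the _s_at, _x_at and _a_at probe sets, where 20 members were tested, 11 were called in coculture and 5 after CCl4 against quiescent cells and 8 in coculture against the injuries. Without the trend 5 were called after CCl4. Between the injuries 1 was called with no filter and 1 with array weights. With all probe sets of a gene averaged, Higd1a after bile duct ligation (-0.77) and CCl4 (-0.70) and Epas1 in coculture (0.72) changed sign and were called. Same-numbered arrays did not deviate together (7 of 26 pairs correlated over 0.1), and the labels give the numbers no shared origin, so they were not taken to pair the samples. Culture and coculture share only the numbers 2 and 3, with correlations of 0.31 and 0.54, and culture 1 with coculture 2 gave 0.45; residuals of 2 arrays mirror each other, so these are not independent. With a replicate block 9 members were called in culture and 5 after CCl4, and Slc16a1 became called in coculture against culture (0.91, limma adjusted p = 0.018), as did Slc2a1 against quiescent cells in coculture (0.81), culture (0.88) and CCl4 (1.03). Centring each array on its median moved the share of higher calls over all genes to 56.1% after bile duct ligation (47.6% without) and to 52.9% after CCl4 (43.3% without). The cause of these changes was not tested. Values under log2 5 lie near background, and 2 coculture arrays limit that group most.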

Other observations

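Some related genes outside the list changed as well. Myc, which drives many glycolytic genes in other settings, fell by 1.92 ± 0.51 in coculture (limma adjusted p = 0.00861) and by 2.38 ± 0.45 in culture (adjusted p = 0.000692), and was the 1 gene of 7 tested in the MYC and MAX network called in coculture. The neuronal enolase Eno2 fell by 1.77 ± 0.39 in culture (adjusted p = 0.00215), by 1.99 ± 0.39 after bile duct ligation (adjusted p = 0.00233) and by 1.47 ± 0.39 after CCl4 (adjusted p = 0.0141). The muscle enolase Eno3 rose by 1.00 ± 0.37 in coculture (adjusted p = 0.0416), by 1.41 ± 0.32 in culture (adjusted p = 0.00267) and by 1.28 ± 0.32 after CCl4 (adjusted p = 0.0105). Bsg, the chaperone that carries the lactate transporters to the membrane, rose by 0.84 ± 0.14 in coculture (adjusted p = 0.000341) and by 0.54 ± 0.12 in culture (adjusted p = 0.00263). Tigar, which lowers the activator of phosphofructokinase, rose by 1.07 ± 0.24 in coculture (adjusted p = 0.0028), by 0.68 ± 0.21 in culture (adjusted p = 0.0161) and by 0.81 ± 0.21 after CCl4 (adjusted p = 0.0124).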
